A study of Populus trichocarpa with 45 samples.

Results

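Some neighbouring genes are transcribed towards each other from opposite strands and share DNA at their 3′ ends, so that the transcript of each gene is antisense to the tail of the other. Such convergent overlapping pairs were followed here in leaf RNA of the black cottonwood, Populus trichocarpa. Genes were sorted by chromosome and start. A pair was taken where a plus-strand gene was followed by a minus-strand gene that started at or before its end, and where both genes had a mean of at least 1 TPM (a transcript level corrected for transcript length and library size) over 45 libraries. Pairs with a gene that also belonged to a head-to-head pair, a minus-strand gene followed by a plus-strand gene across a gap of 1 to 1000 bases, were left out. The rule gave 312 pairs with 624 genes, of 34679 neighbouring pairs and 34700 genes in all.

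Convergent overlapping genes are known in plants as a source of natural antisense transcripts. The polymerase of each gene can run into the template of the other before its transcript is cleaved and polyadenylated, and the overlapping ends of the transcripts can form double-stranded RNA. In Arabidopsis the overlapping transcripts of SRO5 and P5CDH give rise to small interfering RNAs under salt stress. Neighbouring genes can also share chromatin, in which case the levels of both move together. The level ratio of a pair and the correlation of its genes are therefore the usual descriptions of such loci, beside the length of the overlap.

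The files came from a study that assembled the genome of an old wild tree and followed somatic mutations and changes of DNA methylation among its branches, for which leaf RNA from 15 branches was sequenced with a strand-specific mRNA kit, 3 libraries for each branch. There were 5 branches each of tree 4, tree 14 and tree 13, with no treatment. By the study's text, trees 13 and 14 are stems that belong to 1 individual and tree 4 is a separate tree, but the labels' growth protocol speaks of one wild tree in Oregon throughout. The 3 libraries from a branch are described as biological replicates in its Results and as technical ones in its Methods. Tree 4 was set against trees 13 and 14 with the branch as the unit, so p-values measured the spread between branches of 1 individual on either side. Stem 14 (branches 14.2, 14.3, 14.4 and 14.5) was set against stem 13 (13.1, 13.2, 13.3 and 13.5), and the same 8 branches were compared in pairs. Branches 14.1 and 13.4 have no age in the study and entered only the comparison of tree 4 and the descriptions over 15 branches. Leaf markers were not checked, since the gene identifiers are paired with no names here and 0 RefSeq genes carried one of them. For the same reason the genes below are given by identifier and position on the Stettler genome, without a role, and no sequence is shown.

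Depth recovered from the FPKM values ran from 11923900 fragments in replicate 3 of branch 14.1 to 36146500 in replicate 2 of branch 4.1, with a median of 23519500. TPM values were divided by a scaling factor per library, from 0.502 to 1.28, to give the scaled TPM used below. Replicate 3 of branch 14.1 had the lowest factor, and the 624 genes took 0.951% of its deposited TPM, against a median of 1.97% over all libraries. In this library 529 of the 624 genes reached 1 TPM, against a median of 613. Over all libraries, 623 of the genes were above 0 everywhere and 518 reached 1 TPM everywhere. The exception was PtStettler14.01G228000, named after its values were seen, which was listed at 0 in 4 libraries and had a mean of 1.104 TPM.

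The overlaps were mostly short. Their median length was 179 bases, with quartiles of 64.8 and 694 bases, and the full range ran from 1 to 4176 bases. Overlaps of at most 100 bases were found in 104 pairs and overlaps over 1000 bases in 43 pairs. The overlap took a median of 7.45% of the shorter gene model, and more than 50% of it in 22 pairs. In 7 pairs the span of a gene lay wholly within its partner. The longest overlap, 4176 bases, joined PtStettler14.16G096900 (chromosome 16, from 11521627 to 11527217) and PtStettler14.16G097000 (from 11523042 to 11535126), which both stood near the limit on level at means of 1.004 and 1.29 TPM. Next came PtStettler14.15G093700 and PtStettler14.15G093800 with 4004 bases and means of 2.70 and 2.45 TPM. The third was PtStettler14.12G008700, whose whole span of 3096 bases lay inside PtStettler14.12G008600, at 7.91 TPM against 16.8 TPM for its host. These are spans of gene models, and whether an overlap fell in exons, introns or untranslated regions was not analysed here. The pairs were spread over 19 chromosomes, from 39 on chromosome 1 to 2 on chromosome 19.

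At the edges of the rule, the weaker gene of a pair had 1.004 TPM at the lowest inside and 0.998 TPM at the highest outside. Overlaps of 1 base were counted in 2 pairs, PtStettler14.02G009500 with PtStettler14.02G009600 and PtStettler14.09G100800 with PtStettler14.09G100900. Outside fell 5 expressed convergent pairs with a gap of 1 base and no gene in a head-to-head pair. A gap is the start of the second gene minus the end of the first, so genes with a gap of 1 base adjoin with no base between them. At any level there were 733 convergent overlapping pairs. Of these, 316 had exactly 1 gene under 1 TPM, 80 had both under it, and 25 expressed pairs were removed for a head-to-head neighbour.

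**Figure D1:**
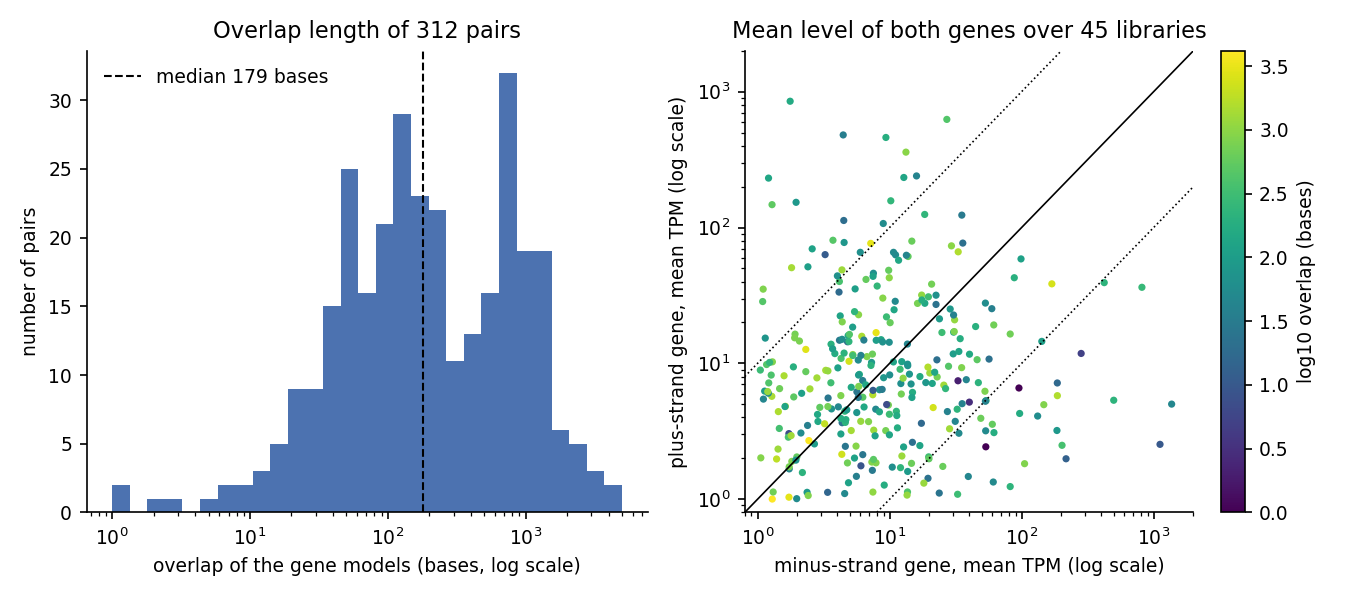
Left, number of pairs by overlap in bases on a log scale, with the median of 179 bases as a dashed line. Right, each point is a pair, with the mean TPM over 45 libraries of its minus-strand gene across and of its plus-strand gene upwards on log scales, coloured by overlap, where the solid line marks equal levels and the dotted lines 10-fold differences, which 61 pairs exceeded.

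Which strand was the stronger did not follow from the rule, and neither strand led. The plus-strand gene had the higher mean in 150 pairs and the minus-strand gene in 162, with median means of 7.22 and 7.90 TPM. The stronger gene of a pair stood at a median of 3.01 times the level of its partner (quartiles 1.71 and 7.10). The same ratio was 3.66 in 1031 convergent pairs with a gap of 1 to 1000 bases, 3.45 in 1005 same-strand pairs across such a gap, 3.10 in 287 head-to-head pairs and 3.46 in all 15462 neighbouring pairs with both genes at 1 TPM or more. Pairs with a gene in a head-to-head pair were also left out of the convergent pairs with a gap. They were kept among same-strand pairs and all neighbouring pairs, here and below. Levels within 2-fold of each other were seen in 98 overlapping pairs (31.4%), against 29.6% of all neighbouring pairs, and levels over 10-fold apart in 61 (19.6%), against 22.0%. The differences between these classes of pairs were not tested. The levels of partners were close to unrelated, with a Pearson correlation of their log2 mean TPM of 0.0373 over the 312 pairs, a description that carries no test. Overlap length and the size of the level ratio had a Spearman correlation of -0.0291 over the same pairs.

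The order within a pair was mostly stable from library to library. In 241 of 312 pairs the same gene was the higher in all 45 libraries. The same share over all neighbouring pairs is not given here, so this order is not shown to be particular to overlapping pairs. In 7 pairs (2.24%, against 2.13% of all neighbouring pairs) the means were more than 100-fold apart. The most abundant of all member genes was PtStettler14.01G359300 on the minus strand of chromosome 1 (from 44679930 to 44681519), with a mean of 1369 TPM. It shared 48 bases with PtStettler14.01G359200, which had 5.02 TPM, a 273-fold difference. PtStettler14.11G108200 had 1117 TPM and overlapped PtStettler14.11G108100, at 2.54 TPM, by 10 bases, a 441-fold difference. PtStettler14.06G127200 had 850 TPM and overlapped PtStettler14.06G127300, at 1.77 TPM, by 157 bases, the widest ratio of all pairs at 481-fold. A strongly expressed gene thus stood beside a weak one in these 3 pairs, with the weak gene held at 1 TPM or more by the rule itself. The kit keeps the strand of a read, but no strand option is stated for the aligner or for StringTie, so reads in an overlap may not have been told apart. The part of this in any level or correlation below was not tested.

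The 7 nested genes gave no common picture. The inner gene was the higher in PtStettler14.01G292400 (47.0 against 7.22 TPM in its host) and PtStettler14.18G080500 (82.0 against 16.5 TPM). In the other 5 nested pairs the host was the higher, by 2.13-fold at the least and by 4.995 log2 units for PtStettler14.01G228100 over PtStettler14.01G228000, at means of 35.2 and 1.104 TPM. Their correlations over branches ran from -0.390 to 0.457. These nested pairs other than the one with the longest overlap were named after their values were seen.

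Next, the levels of both genes were followed over the 15 branch means of log2(scaled TPM + 1). The median Pearson r of the 312 pairs was 0.0188, with quartiles of -0.360 and 0.373 and a range from -0.880 to 0.964. Convergent pairs with a gap had a median r of -0.0332, while it was 0.167 in same-strand pairs, 0.137 in head-to-head pairs and 0.0819 in all neighbouring pairs. Values over 0.5 were found in 53 overlapping pairs (17.0%, against 21.1% of all neighbouring pairs) and values under -0.5 in 46 (14.7%, against 12.4%). Among all tested genes ranked by r with a member gene, its partner stood at a median percentile of 51.04. These correlations are descriptions over 15 points that share 3 trees, and no p-value is given. After the tree means had been subtracted the median was 0.00391, and over the deviations of libraries from their branch mean it was -0.0281. The scaling moved this value most, as with TPM as deposited the median was 0.403 for the overlapping pairs and 0.465 for all neighbouring pairs. Without replicate 3 of branch 14.1 these medians on deposited TPM were 0.326 and 0.411.

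By overlap length the median r was 0.0367 for 1 to 50 bases (58 pairs), -0.0111 for 51 to 100 (46 pairs), -0.153 for 101 to 200 (61 pairs), 0.0608 for 201 to 500 (47 pairs), 0.0353 for 501 to 1000 (57 pairs) and 0.212 above 1000 (43 pairs). Pairs overlapping by 101 to 200 bases had 16 values under -0.5 and 3 over 0.5, while those above 1000 bases had 3 under and 9 over. Within branches the longest overlaps showed no positive median, with -0.0648 above 1000 bases and -0.0936 where the overlap took more than 50% of the shorter gene (22 pairs). Over all pairs, overlap length and r had a Spearman correlation of 0.115. These bins were not tested against each other.

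**Figure D2:**
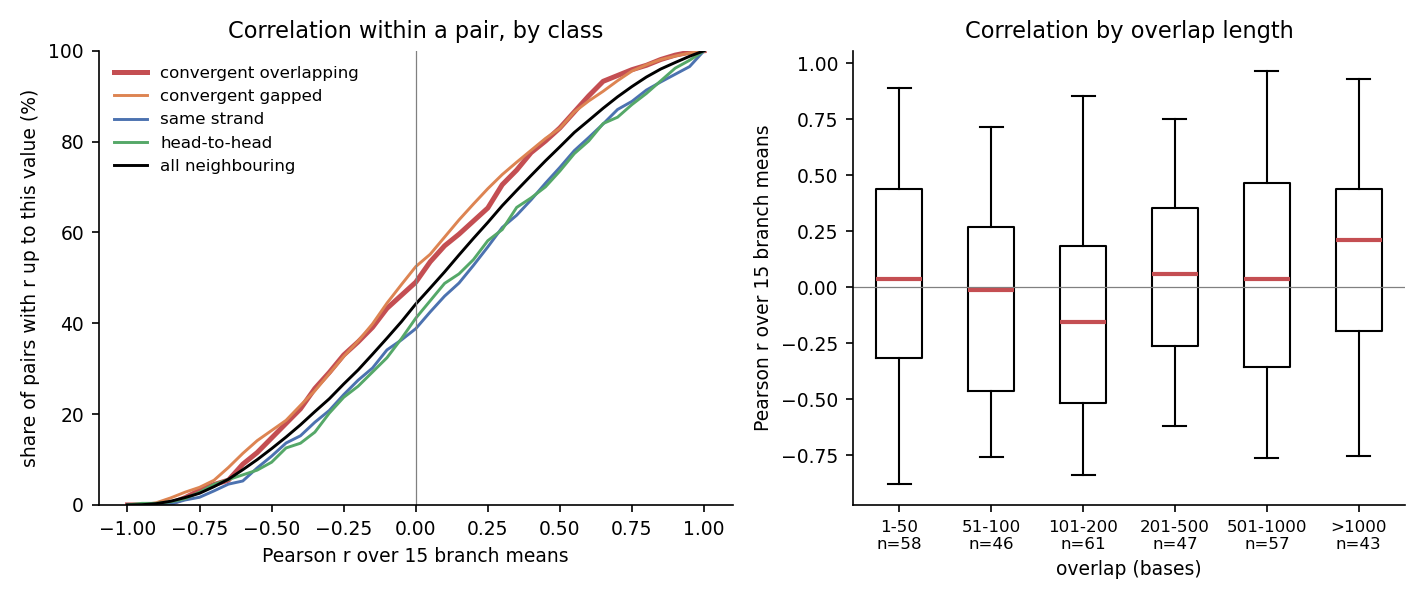
Left, the share of pairs (%) with a Pearson r over 15 branch means up to the value on the x axis, for convergent overlapping pairs, the 3 comparison classes and all neighbouring pairs, where the overlapping pairs run beside the convergent pairs with a gap, at medians of 0.0188 and -0.0332. Right, r by overlap length in bases, with the box at the quartiles, the red line at the median and whiskers to the extremes, and medians between -0.153 and 0.212.

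The 3 pairs with the highest r were genes whose levels ran in parallel from branch to branch. PtStettler14.05G001700 (chromosome 5, from 107406 to 111829) and PtStettler14.05G001800 (from 111089 to 117399) shared 741 bases and had an r of 0.964, and of 0.925 after subtraction of tree means. PtStettler14.05G001700 had 15.7, 21.03, 24.2, 16.0 and 26.2 scaled TPM in branches 4.1 to 4.5, from 12.6 to 19.9 in tree 14 and from 10.1 to 12.997 in tree 13. The minus-strand gene had 1.80, 2.65, 2.52, 1.74 and 3.12 in the same branches of tree 4, from 1.46 to 2.28 in tree 14 and from 1.13 to 1.60 in tree 13. Branches 4.1 and 4.4 were thus low, and 4.5 high, for both genes. Within branches the r of this pair was 0.149. PtStettler14.07G047900 and PtStettler14.07G048000 overlapped by 805 bases with an r of 0.947, and 0.571 within branches. PtStettler14.03G005100 and PtStettler14.03G005200 shared 2407 bases, 56.4% of the shorter gene, with an r of 0.929 and 0.482 within branches. Among all tested genes ranked by r, the partners in these 3 pairs stood at percentiles of 99.90, 99.88 and 98.85, so other genes had an r as high.

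The 3 lowest correlations came from overlaps of 1, 103 and 46 bases. PtStettler14.02G009500 (chromosome 2, from 633159 to 641414) ended on the base where PtStettler14.02G009600 (to 643139) began, and their r was -0.880. PtStettler14.02G009500 had 2.26, 3.34, 3.01, 2.39 and 3.66 scaled TPM in branches 4.1 to 4.5, and from 1.38 to 2.92 in trees 13 and 14. The minus-strand gene had 52.8, 44.96, 47.8, 53.5 and 37.9 in tree 4, and from 47.2 to 63.4 in trees 13 and 14. Where one gene was high the other was low, also within trees, with an r of -0.899 after subtraction of tree means and -0.384 within branches. PtStettler14.07G078700 and PtStettler14.07G078800 had an r of -0.839, and -0.750 without tree means, but 0.101 within branches. For PtStettler14.09G031500 and PtStettler14.09G031600 the r of -0.835 lay between trees, as it was 0.0193 after tree means were subtracted. Among all tested genes ranked by r, the partners in these 3 pairs stood at percentiles of 2.51, 1.76 and 2.80. An r as low was thus also found with genes elsewhere in the genome.

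A further pair, named for its change in tree 4, moved in both ways at once. PtStettler14.02G072900 and PtStettler14.02G073000, on chromosome 2, overlapped by 64 bases. The plus-strand gene had 43.7, 57.4, 59.3, 44.1 and 66.5 scaled TPM in branches 4.1 to 4.5, against a lowest, median and highest branch mean of 61.9, 70.1 and 78.5 in trees 13 and 14. The minus-strand gene had 5.74, 2.60, 3.12, 5.66 and 2.13 in tree 4, against 4.18, 7.05 and 10.7 in trees 13 and 14. Both were lower in tree 4 (log2 changes of -0.40 ± 0.0943 and -0.75 ± 0.191, SE, limma adjusted p = 0.00397 and 0.00701). From branch to branch of a tree they ran against each other, with an r of 0.0946 over branches and -0.925 once tree means were subtracted. Within branches the r was 0.0390. The rank of the -0.925 among other genes is not given, so it is not shown to be particular to this pair.

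**Figure D3:**
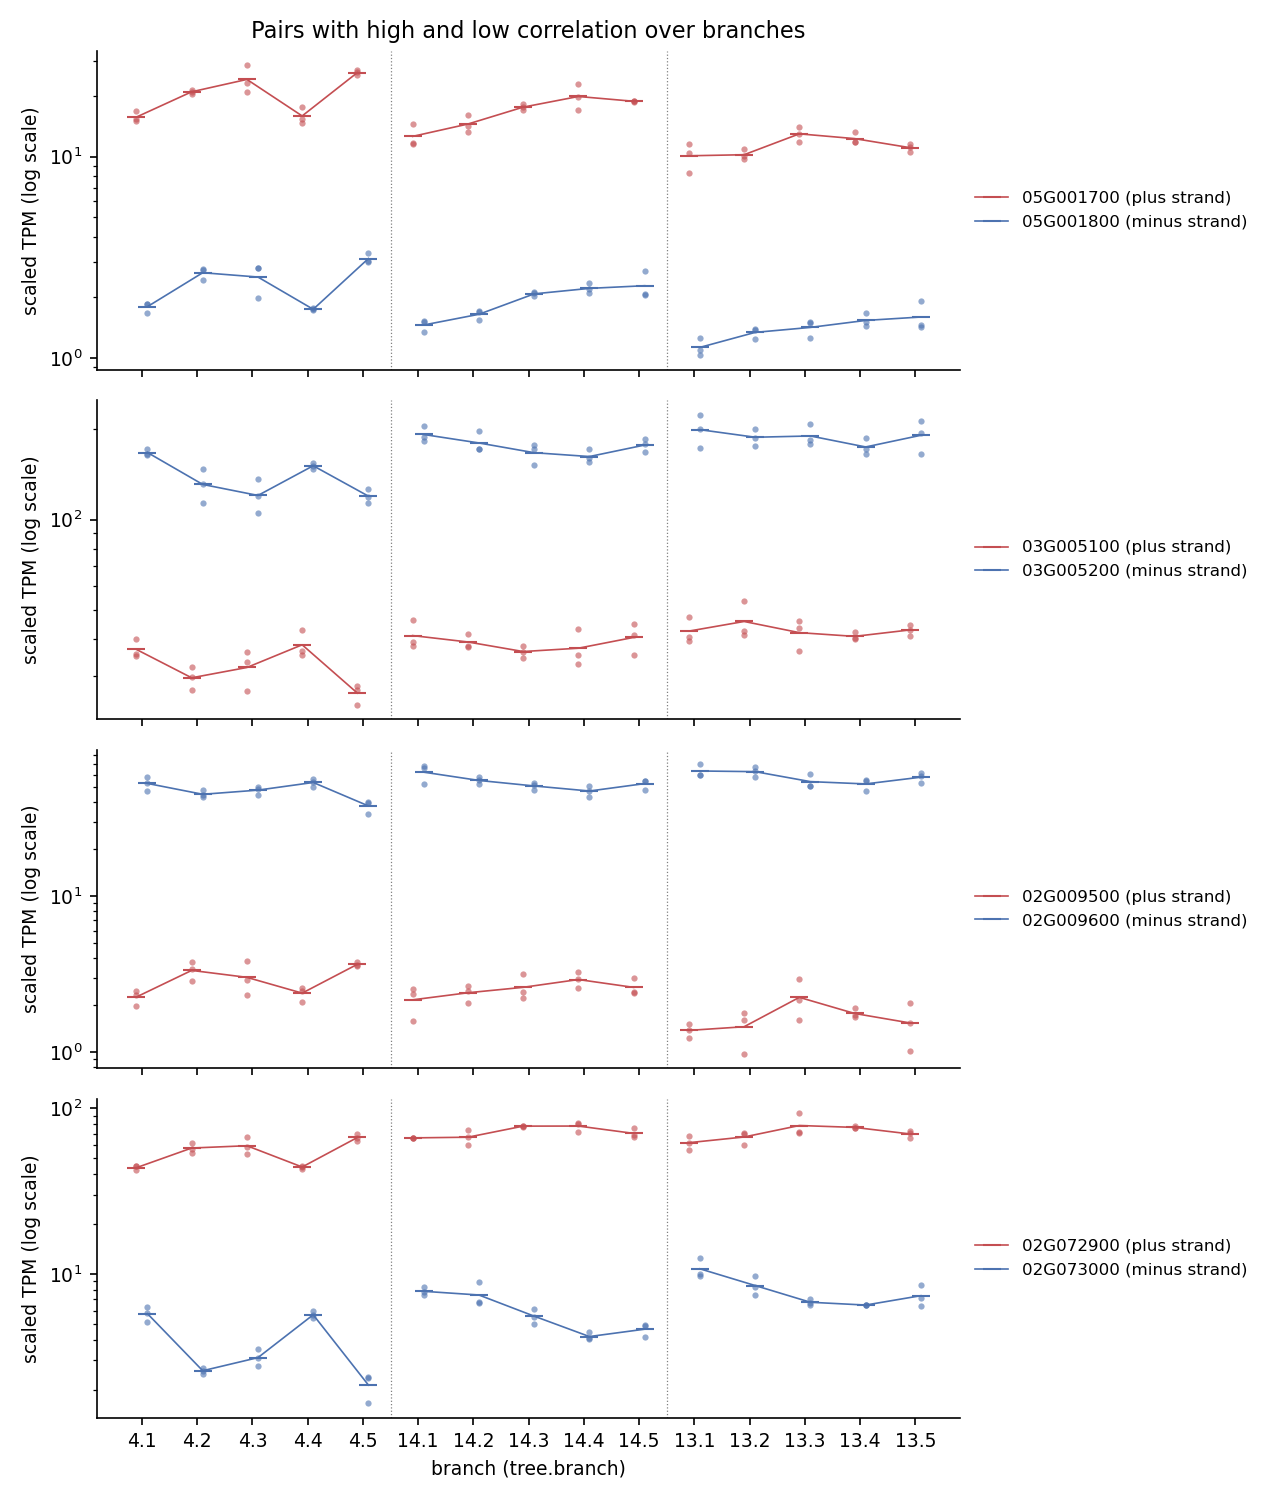
Scaled TPM on a log scale by branch for the pairs 05G001700/05G001800 and 03G005100/03G005200 (high r) and 02G009500/02G009600 and 02G072900/02G073000 (low r over branches or after subtraction of tree means), with points for the 3 libraries of a branch, bars for their mean, red for the plus strand and blue for the minus strand. In the upper pairs both genes dip in the same branches of tree 4, while in the lower pairs the dips of one gene face the peaks of the other.

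Tree 4 was then set against trees 13 and 14 with limma on branch means, at an adjusted p of at most 0.05 over 23816 genes. Of the 624 member genes 233 were called (37.3%), against 36.5% of all genes tested. Of these, 99 were higher in tree 4 (15.9%, against 17.6% of all genes) and 134 lower (21.5%, against 18.9%). The median absolute log2 change was 0.12 over the member genes and 0.12 over all genes. The split by direction depended on the scaling, since with TPM as deposited 202 member genes were called (32.4%, against 32.9% of all genes), 153 higher (24.5%, against 25.7%) and 49 lower (7.85%, against 7.17%). On that scale the median log2 change of all genes lay 0.11 higher than with scaled TPM. Changes below are on the log2(scaled TPM + 1) scale, which understates the change of low genes. Changes of at least 1 log2 unit were called in 6 member genes (0.962%, against 1.34% of all genes). These 6 were lower in tree 4, as were 0.978% of all genes by this amount.

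Both genes of a pair were called in 36 of 312 pairs (11.5%), against 15% of all neighbouring pairs. They moved in the same direction in 18 pairs (5.77%, against 8.92%), 4 with both genes higher and 14 with both lower in tree 4. They moved in opposite directions in the other 18 (5.77%, against 6.06%). Pairs with opposite calls made up 7.37% of convergent pairs with a gap, 5.07% of same-strand pairs and 3.14% of head-to-head pairs, and these classes were not tested against each other. Exactly 1 gene was called in 161 overlapping pairs (51.6%, against 45% of all neighbouring pairs), and neither in the other 115. By overlap length, opposite directions were seen in 7 of 13 pairs with both genes called at 1 to 50 bases, 1 of 4 at 51 to 100, 8 of 9 at 101 to 200, 0 of 1 at 201 to 500, 2 of 5 at 501 to 1000 and 0 of 4 above 1000 bases. At 1 to 50 bases 47.4% of 116 member genes were called, and between 31.9% and 40.2% in the longer bins. These counts are small, and the bins were not tested against each other.

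A call for 1 gene and none for its partner does not show that they changed unequally, so the log2 ratio of plus-strand over minus-strand gene was tested itself in all 15462 neighbouring pairs. The ratio was called in 120 of 312 overlapping pairs (38.5%), against 38.7% of all neighbouring pairs. It was higher in tree 4 in 60 pairs (19.2%, against 19.4%) and lower in 60 (19.2%, against 19.3%). With TPM as deposited 124 ratios were called (39.7%, against 37.9%), 63 higher (20.2%, against 18.9%) and 61 lower (19.6%, against 19.1%). Among pairs with 1 gene called, 87 of 161 ratios passed, and the ratio passed in all 18 pairs with opposite calls and in 8 of 18 with the same direction. The ratio comes from the same branch means as the gene calls, so opposite calls nearly fix this outcome. Matching shares over all neighbouring pairs are not given, and these counts are not a result about overlapping pairs. Branch ratios of tree 4 did not overlap those of trees 13 and 14 in 38 pairs (12.2%, against 11.9% of all neighbouring pairs). The ratio was called in each of the 38, which ratios that do not overlap make likely from the start. Shares of called genes, of called ratios and of ratios that did not overlap were thus near those of neighbouring genes in general.

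Ratios are ranked below among called ratios whose branch values did not overlap between the groups. The widest change was in PtStettler14.10G099500 (chromosome 10, plus strand, from 13302718 to 13307588) and PtStettler14.10G099600 (from 13307468 to 13310608), which shared 121 bases. The plus-strand gene had 33.4, 30.8, 29.1, 32.2 and 30.5 scaled TPM in branches 4.1 to 4.5, against a lowest, median and highest branch mean of 68.8, 87.7 and 109 in trees 13 and 14. The minus-strand gene had 3.50, 2.86, 3.18, 3.56 and 2.65 in tree 4, against 1.71, 2.27 and 2.56 in trees 13 and 14. Neither gene had overlapping branch means, and the directions were opposite. The log2 changes were -1.46 ± 0.0462 and 0.35 ± 0.0660 (SE, limma adjusted p = 1.47e-11 and 0.00088), and the log2 ratio changed by -1.81 ± 0.0696 (limma adjusted p = 9.74e-11). The plus-strand gene also differed between the stems, with means of 74.0 ± 4.62 scaled TPM in stem 14 and 103 ± 6.42 in stem 13 (SD, n = 4 branches each; limma adjusted p = 0.00596). Within the trees the pair had an r of 0.430.

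PtStettler14.12G027400 and PtStettler14.12G027500, on chromosome 12, shared 138 bases. Among the same called ratios they had the widest change in the other direction, 1.66 ± 0.118 (limma adjusted p = 7.17e-08). Almost all of it lay in the minus-strand gene, which had 4.61, 4.29, 4.35, 4.18 and 3.47 scaled TPM in branches 4.1 to 4.5, against 10.4, 13.9 and 18.3 (lowest, median and highest branch mean) in trees 13 and 14. The log2 change of this gene was -1.51 ± 0.101 (limma adjusted p = 4.53e-08). The plus-strand gene averaged 26.4 ± 3.10 in tree 4 and 23.6 ± 1.12 in trees 13 and 14 (SD, n = 5 and 10 branches; limma adjusted p = 0.0600). The minus-strand gene fell into 2 ranges among the 30 libraries of trees 13 and 14, a split noticed after its values were seen. In 5 libraries (1 of branch 13.2, 1 of 14.3, 2 of 14.4 and 1 of 14.5) it had 5.14 to 6.78 scaled TPM, and in the other 25 it had 12.4 to 19.2, while tree 4 ran from 2.01 to 4.95. Libraries of the same branch thus lay in both ranges.

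PtStettler14.09G031500 and PtStettler14.09G031600, on chromosome 9, came next among ratios higher in tree 4, with a change of 1.26 ± 0.121 (limma adjusted p = 1.38e-06). The minus-strand gene had 21.8, 21.9, 21.3, 20.8 and 21.9 scaled TPM in branches 4.1 to 4.5, against 30.1, 44.1 and 89.5 (lowest, median and highest branch mean) in trees 13 and 14. The branches of tree 4 lay close together and below every other branch. The plus-strand gene, at 1.67 ± 0.0542 in tree 4 and 1.34 ± 0.0920 in trees 13 and 14 (SD, n = 5 and 10 branches), was higher in tree 4 by 0.20 log2 units (limma adjusted p = 0.000702). In PtStettler14.07G014800 and PtStettler14.07G014900, which shared 200 bases of chromosome 7, the ratio changed by -1.34 ± 0.247 (limma adjusted p = 0.000566). PtStettler14.07G014800 had 11.1, 6.09, 5.61, 10.8 and 3.57 scaled TPM in tree 4, against 11.7, 17.1 and 24.004 (lowest, median and highest branch mean) in trees 13 and 14. Its partner averaged 3.99 in tree 4 and 3.36 in trees 13 and 14 (limma adjusted p = 0.0427).

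**Figure D4:**
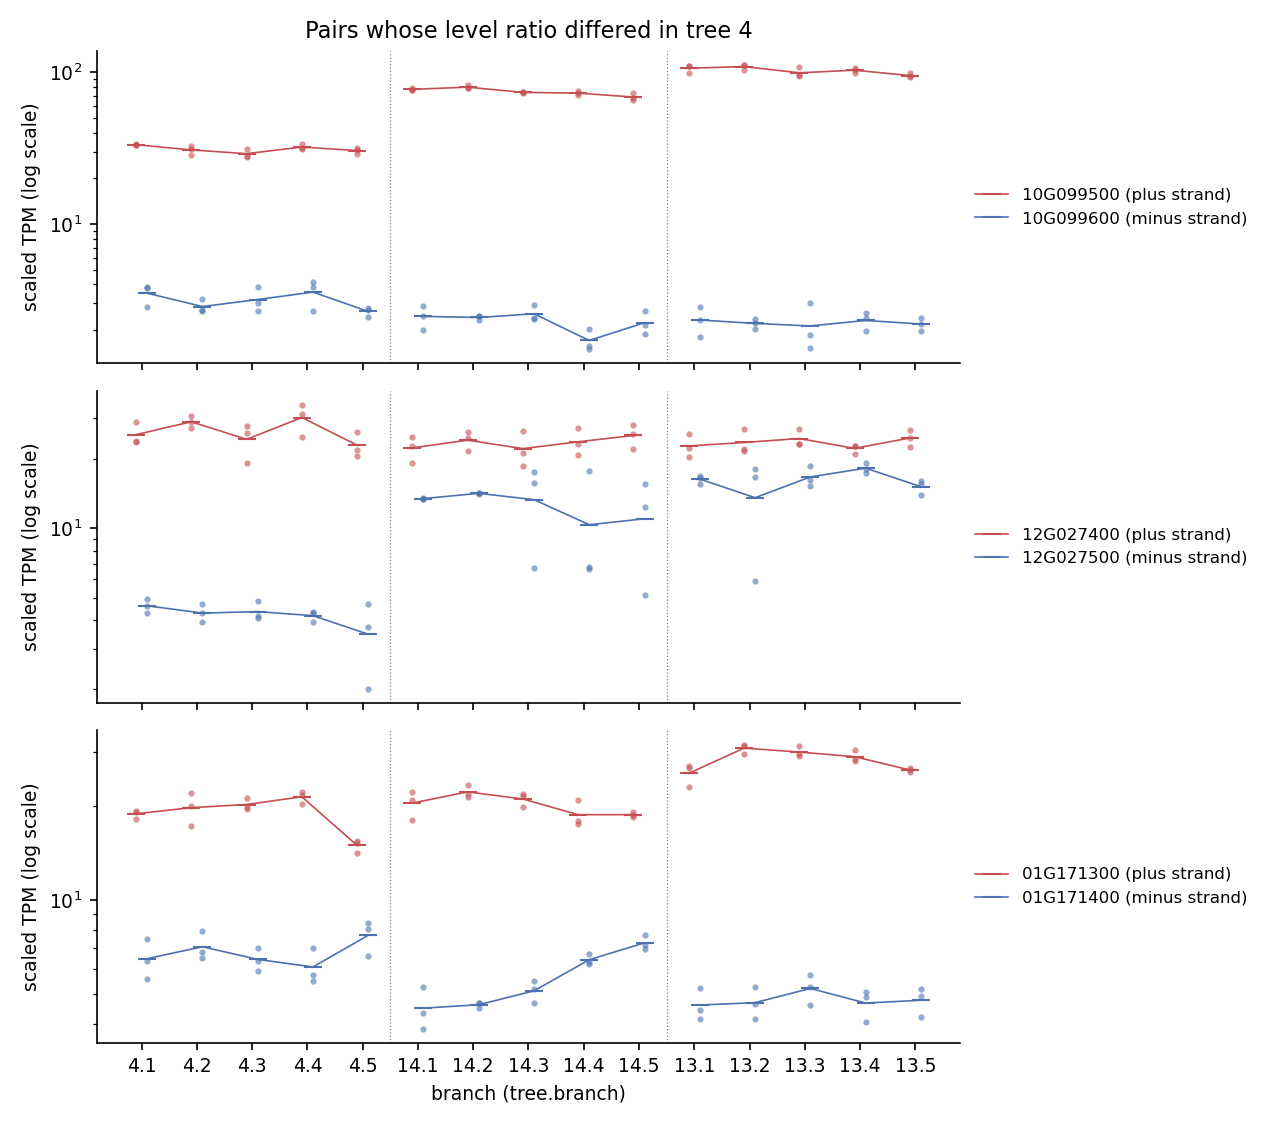
Scaled TPM on a log scale by branch, with tree 4 on the left, then trees 14 and 13, for 3 pairs whose level ratio differed in tree 4, with points for libraries, bars for the branch mean, red for the plus strand and blue for the minus strand. PtStettler14.10G099500 stands at 29.1 to 33.4 in tree 4 and at 68.8 or more elsewhere, and PtStettler14.12G027500 shows 5 low libraries in trees 13 and 14.

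Other pairs with opposite calls changed less. PtStettler14.01G171300 and PtStettler14.01G171400 (chromosome 1, from 17226208 to 17228076 and from 17227117 to 17234121) shared 960 bases, 51.4% of the shorter gene. The plus-strand gene had 19.0, 19.8, 20.3, 21.5 and 14.99 scaled TPM in branches 4.1 to 4.5, against 18.8, 23.9 and 30.8 (lowest, median and highest branch mean) in trees 13 and 14, so the groups overlapped. Its partner had 6.49, 7.09, 6.45, 6.10 and 7.71 in tree 4, against 4.50, 4.73 and 7.29 in trees 13 and 14. The log2 changes were -0.32 ± 0.0731 and 0.34 ± 0.0865 (SE, limma adjusted p = 0.00344 and 0.00726), and the call of the plus-strand gene was lost with TPM as deposited (limma adjusted p = 0.0810), that of its partner without replicate 1 (limma adjusted p = 0.0545). The genes of this pair also ran against each other within branches, with an r of -0.593. In PtStettler14.16G059100 and PtStettler14.16G059200 the changes were 0.32 ± 0.0809 and -0.56 ± 0.180 (SE, limma adjusted p = 0.00652 and 0.0242). The call of PtStettler14.16G059200 was lost without branch 4.4, branch 4.5 or replicate 3 (limma adjusted p = 0.0581, 0.0519 and 0.0531).

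The pairs with both genes called in the same direction in tree 4 were led by PtStettler14.05G057000 and PtStettler14.05G057100, which shared 44 bases of chromosome 5. Their r over branches was 0.728, and -0.0167 after subtraction of tree means, so they shared the difference between trees and not the course within trees. The plus-strand gene had 13.4, 6.52, 6.95, 10.2 and 5.68 scaled TPM in branches 4.1 to 4.5, against 8.79 at the lowest and 24.9 at the highest in trees 13 and 14. The minus-strand gene had 10.6, 9.91, 8.94, 10.1 and 9.95, against 13.9 at the lowest and 17.1 at the highest. Only the minus-strand gene had branch means that did not overlap. The log2 changes were -0.86 ± 0.183 and -0.60 ± 0.0451 (SE, limma adjusted p = 0.00212 and 1.47e-07). PtStettler14.02G150400 and PtStettler14.02G150500, with 1560 shared bases on chromosome 2, were lower by -0.62 ± 0.113 and -0.43 ± 0.0547 (SE, limma adjusted p = 0.000609 and 2.58e-05), and neither of these 2 pairs passed the test of the ratio (limma adjusted p = 0.301 and 0.137).

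Within the individual, stem 14 was compared with stem 13 over 4 branches each. Of the 624 member genes 48 were called (7.69%), against 8.91% of 23383 genes. They were split into 29 higher in stem 14 (4.65%, against 4.98%) and 19 lower (3.04%, against 3.93%). Both genes were called in 1 pair (0.321%), against 1.08% of neighbouring pairs. It moved in the same direction, as did 0.763% of all pairs. No pair was called in opposite directions, against 0.317% of all pairs. At an unadjusted limma p under 0.05 both genes passed in 10 pairs with the same direction (3.21%, against 5.82%) and 6 with the opposite direction (1.92%, against 3.79%). The ratio was called in 35 of 312 pairs (11.2%), against 10.6%, with 14 higher in stem 14 (4.49%, against 5.15%) and 21 lower (6.73%, against 5.43%). Branch ratios of the stems did not overlap in 52 pairs (16.7%, against 17.6%), of which 33 were called, a count without a matching share over all pairs. These counts rested on single branches. Member genes called came to 96 when branch 13.3 was left out and 90 when 14.2 was. Leaving out 13.1, 13.2 or 13.5 gave 23, 12 and 17, and leaving out 14.3, 14.4 or 14.5 gave 15, 8 and 10. The share of all genes called moved between 17.4% and 2.59%. Ratios called came to 65 without 14.2, 60 without 13.3, 15 without 13.1 or 13.5, 7 without 14.3, and 6 without 13.2, 14.4 or 14.5. The shares of all neighbouring pairs called without each branch are not given here. These ratio counts therefore describe how far the calls moved and are not a result about the overlapping pairs.

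**Figure D5:**
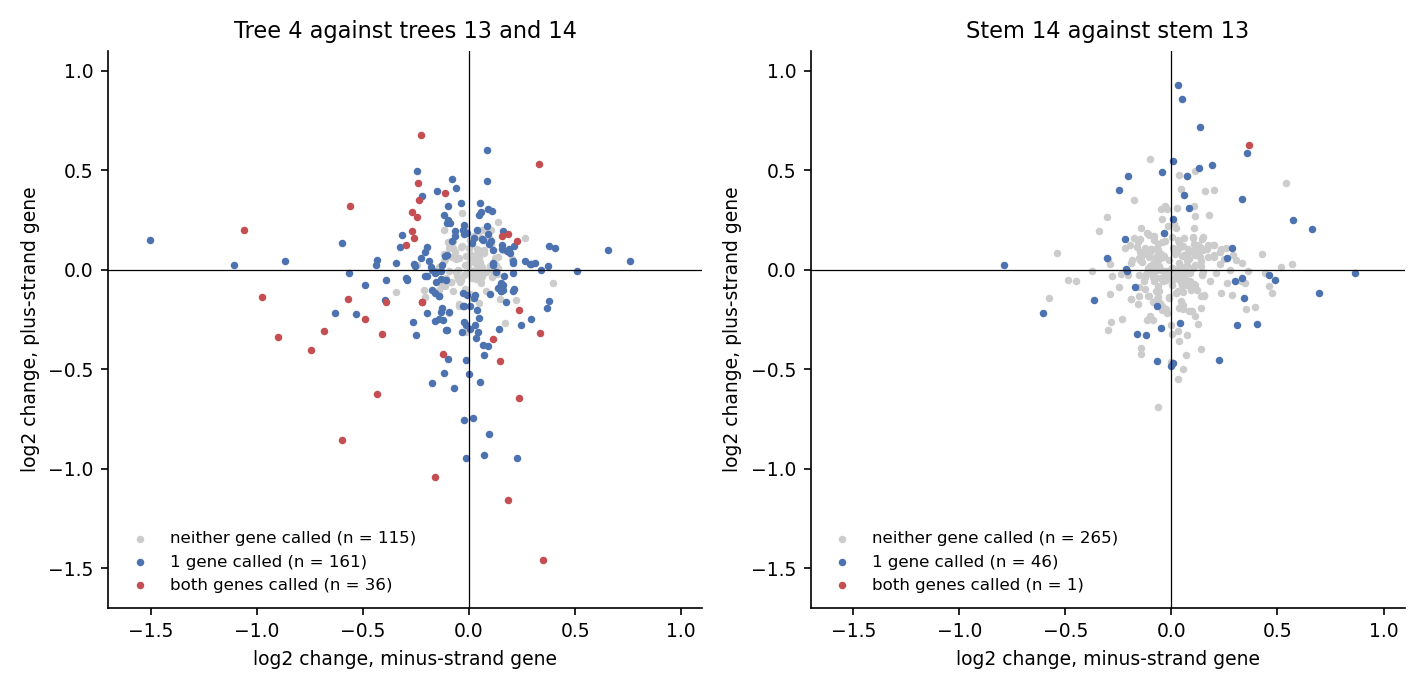
Log2 change on the log2(scaled TPM + 1) scale of the minus-strand gene across and of the plus-strand gene upwards for the 312 pairs, in tree 4 against trees 13 and 14 (left) and in stem 14 against stem 13 (right), with grey for pairs with neither gene called, blue for 1 and red for both. The 36 red pairs on the left lie in all 4 quadrants, 18 with equal and 18 with opposite signs, and most points lie along the axes.

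Among called ratios whose branch values did not overlap between the stems, the widest changes lay in 1 gene of each pair. PtStettler14.11G041400 (chromosome 11, plus strand, from 4131563 to 4134491) had 17.9, 19.6, 24.6 and 25.2 scaled TPM in branches 14.2 to 14.5, against 10.5, 10.5, 11.2 and 11.2 in branches 13.1, 13.2, 13.3 and 13.5. Its partner PtStettler14.11G041500, which shares 140 bases with it, had 4.46, 4.43, 4.96 and 4.61 in stem 14, against 4.29, 4.26, 5.10 and 4.42 in stem 13. Only the plus-strand gene separated the stems. This gene changed by 0.93 ± 0.104 on the log2 scale (SE, limma adjusted p = 0.00262), that of its partner 0.03 ± 0.0642 (adjusted p = 0.786), and that of the ratio 0.90 ± 0.105 (adjusted p = 0.00307).

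PtStettler14.09G122300 had 1.36, 1.86, 2.57 and 2.37 scaled TPM in stem 14, against 0.550, 0.817, 1.11 and 0.954 in stem 13, beside PtStettler14.09G122200, which had 4.22 to 5.03 in stem 14 and 4.95 to 5.32 in stem 13. The ratio of plus-strand over minus-strand gene changed by -0.81 ± 0.139 (SE, limma adjusted p = 0.0110). PtStettler14.07G010600 had 11.8, 14.8, 18.3 and 19.4 in stem 14, against 5.86, 7.37, 11.1 and 9.54 in stem 13, while PtStettler14.07G010500 stayed between 8.12 and 8.89 in all 8 branches. The ratio changed by -0.88 ± 0.195 (limma adjusted p = 0.0246). For PtStettler14.09G031500 and PtStettler14.09G031600 it changed by 0.81 ± 0.192 (limma adjusted p = 0.0306), with the minus-strand gene at 34.1 ± 4.10 in stem 14 and 61.9 ± 19.3 in stem 13 (SD, n = 4 branches each). Over the alternatives the adjusted p of the last 2 ratios reached 0.0826 and 0.0991, and both calls were lost without 13.2, 14.3, 14.4 or 14.5. The only pair with both genes called was PtStettler14.05G001700 and PtStettler14.05G001800, the pair with the highest r, at 0.63 ± 0.106 and 0.37 ± 0.0895 (SE, limma adjusted p = 0.0103 and 0.0382). The call of PtStettler14.05G001800 was lost without 13.1, 13.2, 13.5, 14.3, 14.4 or 14.5, with an adjusted p of up to 0.119.

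Among the 28 pairs of the 8 branches, compared over 3 libraries per branch, a call needed an adjusted limma p no higher than 0.01 together with a log2 change of 1 or more in size. Under this rule 24 of 624 member genes were called in at least 1 pair (3.85%), against 5.6% of all genes. They belonged to 24 different gene pairs. The most calls of member genes, 19 and 18, came from branches 14.4 and 14.5 against 13.1. These 2 branch pairs also had the most calls over all 23383 genes, 987 and 849. Of the 24 genes, 22 were called only across the stems (91.7%, against 65.5% of the 1309 genes called in all), a difference that was not tested. Branch 13.1 carried most of this, since 6 member genes (0.962%, against 2.73% of all genes) were called in the 21 pairs without it. PtStettler14.11G041400 was called in 8 branch pairs, PtStettler14.07G010600 in 5 and PtStettler14.09G031600 in 4. The widest change of PtStettler14.11G041400 was 25.2 ± 0.754 scaled TPM in branch 14.5 and 10.5 ± 1.35 in 13.2 (SD, n = 3 libraries; log2 change 1.19 ± 0.0952, SE, limma adjusted p = 2.14e-08). For PtStettler14.07G010600 it was 19.4 ± 0.455 in 14.5 and 5.86 ± 0.797 in 13.1 (SD, n = 3 libraries; log2 change 1.58 ± 0.113, SE, limma adjusted p = 1.1e-09). For PtStettler14.09G031600 it was 30.1 ± 1.61 in 14.4 and 89.5 ± 26.6 in 13.5 (SD, n = 3 libraries; log2 change -1.50 ± 0.149, SE, limma adjusted p = 4.9e-07). Since the libraries of a branch may be technical replicates of 1 sample, these p-values set a difference between branches against the spread between libraries alone. The adjusted p does not allow for the choice of the widest pair of branches.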

How the data were processed

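RNA from 45 leaf libraries was sequenced by the authors with a strand-specific mRNA kit. The submitters' processing notes name Trimmomatic 0.36, HISAT2 2.1.0 and StringTie 1.3.4d. The deposited files give TPM and FPKM per gene, as the authors' StringTie runs wrote them, with the position and strand of each gene on the Stettler genome. No counts were used, so limma took the place of the study's count model. Depth was recovered from steps in the deposited FPKM values.

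The rule was applied to deposited TPM averaged over libraries. TPM was divided by a median-of-ratios factor over 25014 genes above 0 in every library, and log2(scaled TPM + 1) was averaged per branch. Genes at 1 TPM or more in at least 3 libraries were tested with limma 3.58.1 in R 4.3.3, with Benjamini-Hochberg adjustment over all genes or all neighbouring pairs, at an adjusted p of 0.05 for the tree and stem comparisons. Branch pairs were tested over libraries at an adjusted p of 0.01 and an absolute log2 change of 1. Python 3.11.15, numpy 2.4.6, pandas 2.3.3 and scipy 1.17.1 were used for the rest. The fits were tested on simulated data.

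The text names the 3 pairs with the longest overlap, the highest summed TPM, the highest r and the lowest r. For tree 4 and the stems it names, among pairs with both genes called, the 3 with the largest smaller change in the same and in opposite directions, and the 2 largest called ratio changes of each sign whose branch values did not overlap. For branch pairs it names the 3 member genes called most often. The members and these lists were chosen with earlier results of these data known. Alternatives were another pseudocount, scaling, filter, minimum level, correlation measure and the omission of single branches or replicates.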

Additional observations from a re-analysis of the deposited data

Results flagged for a closer look

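Values were examined in 210 sets of 5 branches of 1 tree, which included the branch means of log2(scaled TPM + 1) of the named genes. In 3 sets a branch stood apart from the other 4 by Dixon's criterion, which chance meets in about 1 in 20 sets. All 3 were such branch means of a named gene in tree 13. PtStettler14.02G150500 had 5.38 in branch 13.1, and the nearest branch, 13.3, had 5.21. PtStettler14.07G010500 had 3.18 in branch 13.2, against 3.27 in 13.3. PtStettler14.07G047900 had 2.79 in branch 13.1, against 3.03 in 13.2.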

How the results depend on the processing

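The tree 4 counts moved little, with 183 to 247 member genes and 98 to 127 ratios called when a branch or a replicate was left out. A minimum mean of 5 TPM left 136 pairs, of which 64 had a called ratio in tree 4 and 15 between the stems, and a minimum of 0.1 TPM gave 474 pairs. Counts of calls in this section are given without the share over all genes or pairs under the same setting. They describe how far the calls moved and are not a result about the overlapping pairs. Stem counts depended on single branches, with 8 to 96 member genes and 6 to 65 ratios, and came to 27 member genes with TPM as deposited and 31 with no filter. In branch pairs 44 member genes were called with a pseudocount of 0.1 and 6 to 27 when a branch or a replicate was left out. Leaving out each branch there was chosen after seeing the data. With the replicate number as a block 24 member genes were called, as without it. Deviations of libraries with the same number had a mean r of 0.0131, and those with different numbers -0.00605, and 17 of 45 libraries matched best with their own number, so the numbers were not taken to pair the samples. The median absolute log2 level ratio was 1.38 with a pseudocount of 1, and 1.59 to 1.61 without single replicates. The median r was 0.403 with TPM as deposited, -0.0281 within branches, and between -0.0128 and 0.0522 without single branches or replicates. Of the values for single genes and pairs, 26 lost their call under an alternative and none turned its direction. PtStettler14.09G031600 was called in 7 branch pairs without replicate 2, against 4 with all libraries. The causes of these shifts were not tested.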
